A study of Mus musculus with 3 samples.

Results

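The cells described here are sorted cortical neurons that held transcripts of at least 2 of the genes Sfrp2, Zfpm2 and Olfm3. They were selected on these measured values: more than 700 genes per cell, under 10% of unique molecular identifiers (UMIs, each standing for 1 captured transcript) from mitochondrial genes, UMIs of at least 2 of the 3 genes, and 0 UMIs of Nos1, Pdyn, Myh8, Cbln4 and Neurod6. The rule took 167 of 12324 cells, or 1.77% of the 9433 cells that passed the filters on genes and mitochondrial UMIs (exact Clopper-Pearson 95% interval 1.51 to 2.06%). They are called members below. All other filtered cells with 0 Nos1 UMIs and none of the 3 genes, 6780 in total, served as reference cells.

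The cells came from mice carrying Sst-Cre and the RCEloxP reporter, in which Cre driven from the somatostatin (Sst) locus switches on GFP, so a cell is labelled if it or its precursor ever used that locus. GFP-positive cells were sorted from the neocortex at embryonic day 16.5 (E16.5), postnatal day 1 (P1) and postnatal day 5 (P5), and no group without the Cre allele was used here. Each stage is 1 droplet library from pooled animals (6, 3 and 3 animals in order of age). Stage and library therefore cannot be told apart, no difference was tested, and all intervals cover counting error only.

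Somatostatin interneurons are inhibitory neurons that arise in the medial ganglionic eminence and migrate into the cortex, where many of them contact the dendrites of pyramidal cells. Sfrp2 encodes a secreted frizzled-related protein that binds Wnt ligands, Zfpm2 (also called FOG2) a zinc-finger cofactor of GATA factors, and Olfm3 a secreted olfactomedin-domain protein found with AMPA receptors. On GRCm38, Sfrp2 lies on chromosome 3 at 83766321 to 83774316, Zfpm2 on chromosome 15 at 40655035 to 41104592 and Olfm3 on chromosome 3 at 114904078 to 115125722, all on the plus strand.

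The E16.5 library held 4478 cells and 25638779 UMIs, the P1 library 4440 cells and 15654107 UMIs, and the P5 library 3406 cells and 13429055 UMIs. At E16.5, 31 of 3952 filtered cells were members (0.784%, interval 0.534 to 1.11%). The P1 library gave 85 of 2501 (3.40%, interval 2.72 to 4.19%) and the P5 library 51 of 2980 (1.71%, interval 1.28 to 2.24%). The rule favours deep cells, and members of the E16.5, P1 and P5 libraries held a median of 7353, 5264 and 4573 UMIs, against 5404, 2873 and 4112 in reference cells. With each cell thinned to 2000 UMIs, the same rule took 5, 30 and 21 cells, so the number of members depends on depth in each library. The libraries shared 3 barcodes between E16.5 and P1, 1 between E16.5 and P5 and 6 between P1 and P5, and 0 of these belonged to a member.

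The 3 genes gave few UMIs. Among members, the highest total of the 3 genes in a cell was 7 UMIs at E16.5, with 8 at P1 and 6 at P5, and 16, 31 and 19 members passed with exactly 2 UMIs. Just outside the rule, 505, 422 and 267 cells of the E16.5, P1 and P5 libraries held exactly 1 of the 3 genes with 0 UMIs of the 5 barred genes. The barred genes removed some cells that held at least 2 of the 3 genes, 7 of 38 in the E16.5 library, 24 of 109 in the P1 library and 50 of 101 in the P5 library. At P5, 32 of the removed cells held Pdyn and 18 held Cbln4, with some cells holding more than 1 barred gene.

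The members were interneurons by markers that the rule did not use. Gad1 or Gad2, which encode the enzymes that make GABA, was found in 28 of 31 members at E16.5 (90.3%, interval 74.2 to 98.0%). It was found in 80 of 85 members at P1 (94.1%, interval 86.8 to 98.1%) and in 44 of 51 members at P5 (86.3%, interval 73.7 to 94.3%). Reference cells gave 89.8%, 77.7% and 79.6%. In cells marked by at least 3 of 6 excitatory genes, which should lack them, the shares were 19.4%, 30.3% and 5.88% at higher median depths of 12095, 6227 and 4954 UMIs. Lhx6, a transcription factor of the medial ganglionic eminence lineage, was found in 93.5%, 91.8% and 72.5% of members and in 83.4%, 75.2% and 76.9% of reference cells, against 11.1%, 27.3% and 5.88% of the excitatory-marked cells. Sst was found in 96.8%, 88.2% and 84.3% of members and in 72.8%, 65.3% and 67.3% of the shallower reference cells, against 47.2%, 30.3% and 0% of excitatory-marked cells, where 0 of 17 allows up to 19.5%.

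Markers of other cells were summed as lists. The 11 excitatory marker genes outside the rule summed to 0, 1.89 and 4.30 CPM (UMIs per 1000000 UMIs) in members of the E16.5, P1 and P5 libraries, and Neurod2, Slc17a7 and Slc17a6 were at 0. Since members were chosen with 0 UMIs of Neurod6, itself an excitatory gene, and reference cells were not, these sums are a description. Microglial markers had 0 UMIs in members of all 3 libraries, against 0.453, 0.506 and 17.4 CPM in reference cells. The 8 vascular markers had 0, 1 and 1 UMIs in members, or 0, 1.89 and 4.30 CPM, against 2.02, 4.22 and 3.11 CPM in reference cells. Oligodendrocyte lineage markers summed to 24.1, 45.5 and 47.3 CPM in members against 32.4, 40.1 and 49.5 CPM in reference cells, and Olig1, Olig2, Pdgfra, Sox10 and Cspg4 were at 0. Mbp was the most abundant of them.

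Astrocyte and radial glia markers summed to 56.3, 75.8 and 34.4 CPM in members against 16.3, 45.0 and 17.2 CPM in reference cells. Of these 9 genes, 2, 3 and 2 had a UMI in members, and Slc1a3, Aldh1l1, Aqp4, Hes5, Aldoc and Gfap were at 0 in all 3 libraries. Most of the sum came from Hopx, with 13, 33 and 6 UMIs in members and log2 ratios of 2.55 (interval 1.75 to 3.50), 1.87 (1.32 to 2.52) and 1.70 (0.33 to 3.03). Hopx had too few UMIs to enter the comparison of all genes and is named after its values were seen. The 6 cycling markers summed to 4.02, 30.3 and 4.30 CPM in members against 12.4, 15.5 and 8.64 CPM in reference cells. At P1 the most abundant was Ccnb1, with 9 UMIs of which 77.8% came from 1 member, and Cdk1 and Birc5 were at 0 in members of all 3 libraries. Lists of other neurons gave the following sums. Parvalbumin cell markers summed to 760.5, 1750 and 2311 CPM in members against 1247, 2939 and 1893 in reference cells, with Mef2c the most abundant and Pvalb and Syt2 at 0. Markers of Meis2 interneurons summed to 60.4, 37.9 and 21.5 CPM against 112, 124 and 26.0, all of it Tshz1 in members, with Meis2 at 0. Those of Cajal-Retzius cells summed to 201, 786 and 783 CPM against 258, 510.5 and 978, with Reln the most abundant and Trp73, Lhx1 and Lhx5 at 0. The 13 dissociation and immediate early genes, which respond to handling of the tissue, summed to 608, 210 and 301 CPM in members against 613, 265 and 527 in reference cells. Of these, 9, 9 and 7 had a UMI in members, Jund was the most abundant, and Ier2, Atf3 and Hspa1b were at 0. Jun, 1 of the 2 tested, had log2 ratios of -0.12, -0.50 and -2.04 (7 UMIs at P5, interval -3.39 to -1.03), and Jund of 0.24, -0.19 and -0.73. The part of these markers in the results that follow was not tested.

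UMIs of all 3 genes were found together in 0, 8 and 3 members. With so few UMIs per cell, a gene without a UMI is not shown to be absent from that cell. At E16.5, 26 of 31 members held Zfpm2 and Olfm3 alone, 5 held Sfrp2 and Zfpm2 alone, and 0 held Sfrp2 with Olfm3. At P1, 43 of 85 held Zfpm2 and Olfm3 alone, 26 Sfrp2 and Olfm3 alone, 8 Sfrp2 and Zfpm2 alone, and 8 all 3 genes. At P5, 25 of 51 held Sfrp2 and Olfm3 alone, 19 Zfpm2 and Olfm3 alone, 4 Sfrp2 and Zfpm2 alone, and 3 all 3 genes. The members are therefore described by the rule, as cells with UMIs of at least 2 of the 3 genes.

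How often the pairs met was set beside the product of each gene's share within 10 bins of depth. Sfrp2 and Zfpm2 met in 5 cells at E16.5 where the product gives 5.64, in 16 at P1 where it gives 19.9, and in 7 at P5 where it gives 5.22. Each of these products lies inside the exact Poisson interval of the count (1.62 to 11.7, 9.15 to 26.0 and 2.81 to 14.4). Zfpm2 and Olfm3 met in 26, 51 and 22 cells, against products of 15.0, 24.5 and 9.26, each below its interval (17.0 to 38.1, 37.97 to 67.1 and 13.8 to 33.3). Sfrp2 and Olfm3 met in 28 cells at P5, against 9.98 (interval 18.6 to 40.5), in 34 at P1, against 26.3 (23.5 to 47.5), and in 0 at E16.5, against 2.24. Since these genes chose the members, the counts are a description.

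**Figure D1:**
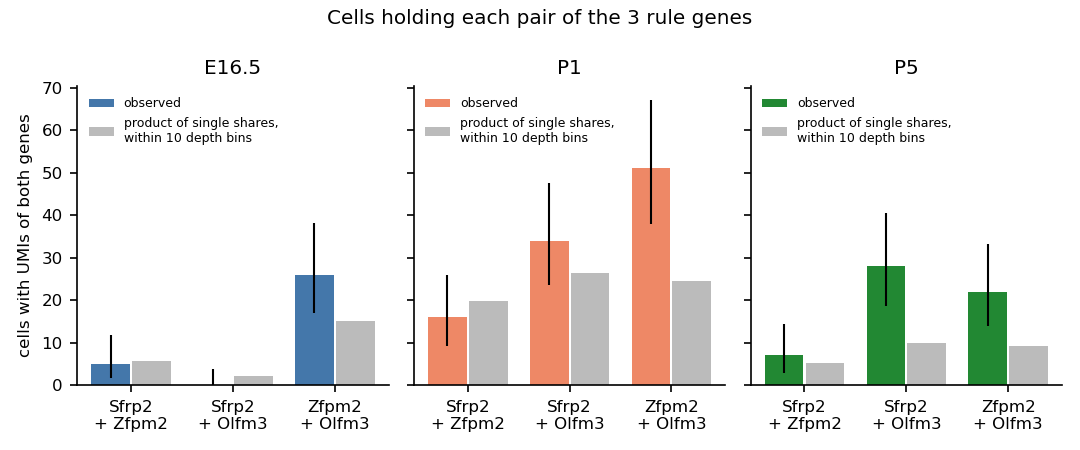
Cells holding UMIs of each pair of Sfrp2, Zfpm2 and Olfm3 in the 3 libraries, among filtered cells with 0 UMIs of the 5 barred genes. Coloured bars are observed cells with exact Poisson 95% intervals and grey bars the product of single-gene shares within 10 bins of depth; the Zfpm2 and Olfm3 pair stands above its grey bar in each library (26 against 15.0, 51 against 24.5 and 22 against 9.26).

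The level of the 3 genes differed between the libraries. Over all filtered cells of the E16.5, P1 and P5 libraries, Sfrp2 stood at 2.68 (interval 2.07 to 3.41), 29.0 (25.9 to 32.4) and 18.6 CPM (16.3 to 21.1). Olfm3 stood at 7.02 (6.02 to 8.15), 51.0 (46.8 to 55.4) and 50.8 CPM (47.0 to 54.9). Zfpm2 stood at 22.9 (21.05 to 24.9), 28.1 (25.0 to 31.4) and 10.1 CPM (8.43 to 11.98). Sfrp2 and Olfm3 were thus lowest at E16.5 and Zfpm2 lowest at P5. Zfpm2 was also found in 14 of 36 excitatory-marked cells at E16.5 (38.9%, median depth 12095 UMIs), above its 10.2% of all filtered cells.

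Without the 8 genes of the rule, members still lay near each other. Among the 30 nearest neighbours of a member in 15 principal components of cells thinned to 2000 UMIs, 4.52% were members at E16.5 where members made up 0.817% of the cells, 17.1% against 5.50% at P1, and 9.39% against 2.27% at P5. These are means of 10 thinning draws, which ranged from 3.45 to 5.98%, 15.3 to 19.2% and 7.39 to 10.7%. Most neighbours were thus not members. The cells compared had 0 Nos1 UMIs but could hold Pdyn, Myh8, Cbln4 or Neurod6, which no member could. At P5 without thinning there were 2433 such cells, of which 1824 had 0 UMIs of all 5 barred genes. Part of the nearness may therefore come from the barred genes of the rule, which was not tested. The neighbours include members, which hold at least 2 of the 3 genes by selection, so part of the following shares is fixed by the rule and they are a description. Olfm3 was found in 45.8% of the neighbours of P5 members against 12.5% of all cells compared, Sfrp2 in 23.0% against 7.89% and Zfpm2 in 12.4% against 4.63%. At E16.5 Sfrp2 was found in 1.44% of the neighbours against 1.63% of the cells, and Zfpm2 in 23.1% against 10.8%.

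For the other genes, UMIs were summed over members and over reference cells of each library, scaled to CPM, and compared as a log2 ratio with a pseudocount of 1 CPM. The member sums of the E16.5, P1 and P5 libraries held 248535, 528049 and 232373 UMIs. Of 3428 genes with enough UMIs in all 3 libraries, 33 were past 2-fold higher in members at E16.5 (0.963%), with 8 at P1 (0.233%) and 33 at P5 (0.963%). Past 2-fold lower were 48 at E16.5 (1.4%), with 32 at P1 (0.933%) and 41 at P5 (1.2%). In all 3 libraries at once, 2 genes were past 2-fold higher (0.0583%) and 5 past 2-fold lower (0.146%). The median log2 ratio over all tested genes was 0.02, -0.01 and 0.03.

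The 2 genes higher in every library were Lingo1 and Mpped2, though neither was so under every alternative processing. Lingo1 encodes a transmembrane protein of the Nogo receptor complex that restrains axon growth. It stood at 157 CPM in members against 44.3 in reference cells at E16.5, 100.4 against 34.2 at P1 and 284 against 65.4 at P5, log2 ratios of 1.80 (interval 1.32 to 2.29), 1.52 (1.09 to 1.99) and 2.10 (1.73 to 2.49). It was found in 15 of 31, 36 of 85 and 31 of 51 members, and the top member held 15.4%, 9.43% and 7.58% of the UMIs. Mpped2, which encodes a metallophosphoesterase, stood at 785 against 378 CPM at E16.5, 619 against 279 at P1 and 293 against 131 at P5, log2 ratios of 1.05, 1.15 and 1.15. In the 5 E16.5 members with Sfrp2, the log2 ratio was -0.74 for Lingo1 on 1 UMI (interval -6.06 to 1.72) and -0.27 for Mpped2 on 12 UMIs (-1.22 to 0.54). With over 1000 genes and under 5% mitochondrial UMIs required, 0 of 1303 tested genes were past 2-fold higher in all 3 libraries, with Lingo1 at 0.12 in 14 P1 members on 3 UMIs (interval -2.21 to 1.78) and Mpped2 at 0.87 at E16.5. Without the top 5% of cells by UMIs, Mpped2 was at 0.97 at E16.5 and 0.96 at P1, and as a mean of per-cell CPM it was at 0.80 at E16.5 and 0.85 at P5.

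The 5 genes lower in every library were Cort, Sh3rf3, Ptchd4, Tmem178 and Klhl5. Cort encodes cortistatin, a peptide related to somatostatin, and stood at 20.1 CPM in members against 62.0 in reference cells at E16.5, 32.2 against 187 at P1 and 64.5 against 637 at P5. Its log2 ratios were -1.58 (interval -3.25 to -0.40), -2.50 (-3.32 to -1.85) and -3.28 (-4.14 to -2.58), and at E16.5 its 5 UMIs came from 2 members. Sh3rf3 had log2 ratios of -1.95, -1.65 and -1.17, Ptchd4 of -1.44, -1.05 and -2.46, Tmem178 of -1.36, -1.10 and -1.42, and Klhl5 of -1.24, -1.35 and -2.18. At E16.5 members held few UMIs of Sh3rf3 (4, interval of the ratio -3.90 to -0.66), Klhl5 (6), Tmem178 (12) and Ptchd4 (13), and P5 members held 5 UMIs of Ptchd4. In the 5 E16.5 members with Sfrp2, Klhl5 was at 0.42 on 3 UMIs (interval -1.85 to 1.98) and Tmem178 at 0.33 on 6 (-1.12 to 1.45). Ptchd4 was at -0.14 in these cells, and Sh3rf3 was no longer past 2-fold lower there. Under the stricter filter on genes and mitochondrial UMIs, Cort was at -0.93 at E16.5, Sh3rf3 at -0.73 at P5 and Tmem178 at -0.84 at P1. Klhl5 (-1.98, -1.92 and -2.75) and Ptchd4 (-1.51, -1.66 and -2.07) stayed past 2-fold lower there, with too few UMIs to be among the 1303 tested genes. In members with Sfrp2, Sh3rf3 was at -0.96 at P5 and Tmem178 at -0.66 at P1. Without the top 5% of cells by UMIs, the ratios of all 5 genes stayed past 2-fold lower in the 3 libraries, though Cort, Sh3rf3 and Klhl5 then had too few UMIs to be tested. Ptchd4 at P1 was at -0.75 as a mean of per-cell CPM and at -0.96 with a pseudocount of 10 CPM.

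**Figure D2:**
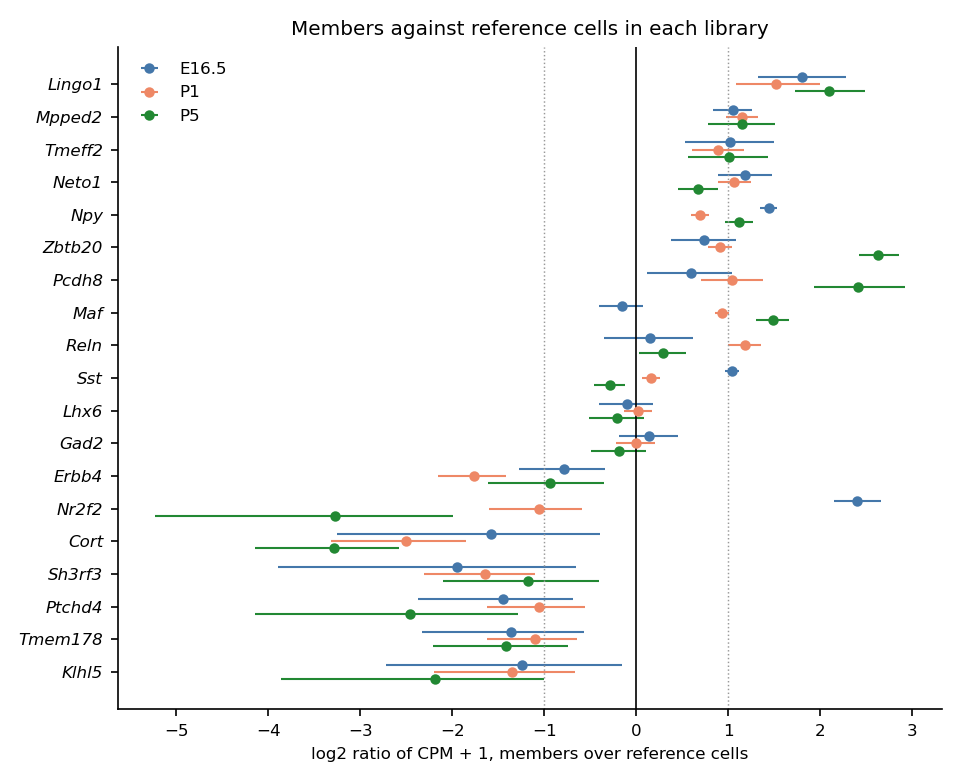
Log2 ratio of members over reference cells (CPM with a pseudocount of 1) for 19 genes in the E16.5, P1 and P5 libraries, with exact 95% intervals of the ratio for counting error; dotted lines mark 2-fold. Lingo1 lies past 2-fold higher and Cort past 2-fold lower in all 3 libraries, while Nr2f2 runs from 2.40 at E16.5 to -3.28 at P5.

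Nr2f2, which encodes the nuclear receptor COUP-TFII, lay on opposite sides in different libraries. It stood at 547 CPM in members against 103 in reference cells at E16.5, 66.3 against 139 at P1 and 17.2 against 176 at P5. The log2 ratios were 2.40 (interval 2.15 to 2.66), -1.06 (-1.60 to -0.58) and -3.28 (-5.23 to -1.99). It was found in 24 of 31 members at E16.5, in 11 of 85 members at P1, and in 2 of 51 members at P5. Members with Sfrp2 held 0 Nr2f2 UMIs at P1 (42 cells) and P5 (32 cells). The Nr2f2 UMIs of P1 and P5 members thus all came from members without Sfrp2. Reference cells held it in 22.1%, 13.3% and 23.0%, and excitatory-marked cells in 13.9%, 3.03% and 0%. Members were thus above the reference at E16.5 and below it at P5 in this gene. At P1, with over 1000 genes and under 5% mitochondrial UMIs required, its log2 ratio was 0.065 in 14 members on 10 UMIs (interval -1.03 to 0.99). The P1 ratio was -0.92 with reference cells that lacked all barred genes and -0.97 with a pseudocount of 10 CPM.

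Nr2f2 is also a marker of interneurons from the caudal ganglionic eminence. The 10 markers of those cells summed to 764 CPM in members against 238 in reference cells at E16.5, 301 against 437 at P1 and 258 against 497 at P5. At E16.5, 4 of the 10 had a UMI in members, Nr2f2 was the most abundant, and Prox1, Adarb2, Sp8, Vip, Lamp5 and Sncg were at 0. Of the 2 tested genes of the list, Nr2f2 and Cnr1, both were past 2-fold higher at E16.5, and Cnr1, the cannabinoid receptor, had log2 ratios of 1.08, -0.07 and -0.96. With reference cells weighted to the depth of the members, Cnr1 was at 0.95 at E16.5, and at 0.98 where these also lacked the other barred genes.

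Of 29 tested interneuron transcription factors, 2 were past 2-fold higher and 3 lower at E16.5, 0 and 2 at P1, and 2 and 3 at P5, with medians of -0.32, -0.11 and 0.11. For this and the following lists, the shares over all tested genes were 0.963%, 0.233% and 0.963% higher at E16.5, P1 and P5. The shares lower were 1.4%, 0.933% and 1.2%. Maf, which acts in the development of these interneurons, stood at 587 CPM in members against 655 in reference cells at E16.5, 3030 against 1583 at P1 and 1226 against 438 at P5, log2 ratios of -0.16, 0.94 and 1.48. Npas1, a bHLH-PAS factor, was at 34.4 CPM in P5 members against 203 in reference cells (log2 ratio -2.53, interval -3.78 to -1.58), with 0.17 at P1 and -0.39 at E16.5. Npas3 had log2 ratios of -0.94 (0.43 in the 5 members with Sfrp2, interval -0.63 to 1.31), -0.90 and -1.80, and Mef2c, an activity-regulated factor, of -1.04, -0.78 and 0.47.

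Lhx6, Sox6, Gad1 and Gad2 stayed close to the reference level. Their log2 ratios lay between -0.52 (Gad1 at P5) and 0.28 (Gad1 at E16.5). Of 17 tested genes of inhibitory identity, 2 were past 2-fold higher and 0 lower at E16.5, 0 and 1 at P1, and 1 and 1 at P5. The Sst level was 5726 CPM in members against 2783 in reference cells at E16.5, 1678 against 1498 at P1 and 1265 against 1542 at P5, log2 ratios of 1.04, 0.16 and -0.29. In the 5 E16.5 members with Sfrp2, the Sst log2 ratio was -0.62 (interval -0.98 to -0.28), and with reference cells weighted by depth it was 0.86 at E16.5.

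Zbtb20, a zinc-finger repressor, had the highest log2 ratio at P5 of the genes named here. It stood at 286 CPM in members against 171 in reference cells at E16.5, 1036 against 550.4 at P1 and 886 against 142 at P5, log2 ratios of 0.74, 0.91 and 2.63 (interval 2.42 to 2.85). At P5 it was found in 42 of 51 members. With reference cells weighted to the depth of the members, the ratios were 1.23, 1.48 and 2.67. In the 5 E16.5 members with Sfrp2 the ratio was -0.70 on 4 UMIs (interval -2.58 to 0.65).

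Neuropeptide Y is released by many somatostatin interneurons, and Npy was at 3947 CPM in members against 1455 in reference cells at E16.5, 1852 against 1144 at P1 and 1584 against 729 at P5, log2 ratios of 1.44 (interval 1.35 to 1.53), 0.69 (0.60 to 0.79) and 1.12 (0.96 to 1.27). With reference cells weighted to the depth of the members, the ratios were 1.36, 1.09 and 1.34. With over 1000 genes and under 5% mitochondrial UMIs required, the P1 ratio was -0.42 in 14 members. The P5 ratio was 0.94 with reference cells that lacked all barred genes, 0.71 as a mean of per-cell CPM and 0.96 in members with Sfrp2, and the E16.5 ratio was 0.71 in members with Sfrp2. Npy was found in 83.9%, 94.1% and 88.2% of members and 53.7%, 63.5% and 47.3% of reference cells, against 30.6%, 57.6% and 17.6% of the excitatory-marked cells. Pnoc, which encodes prepronociceptin, had log2 ratios of 1.21, -0.54 and -1.08, and its 36 UMIs at E16.5 came from 9 of the 26 members without Sfrp2, with 0 UMIs in the 5 members with it. At P1, under the stricter filter on genes and mitochondrial UMIs, Pnoc was at 1.20 on 8 UMIs (interval -0.07 to 2.31). It was at 0.93 at E16.5 with reference cells weighted by depth and at -0.50 in P5 members with Sfrp2. Of 8 tested genes of neuropeptides and their processing, 3 were past 2-fold higher and 1 lower at E16.5, 0 and 1 at P1, and 1 and 2 at P5.

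Genes related to the function of Olfm3 were tested as a list of olfactomedins, AMPA receptor subunits and their partners. Of 16 tested genes, 2 were past 2-fold higher and 0 lower in each library, with medians of 0.07, 0.27 and 0.29. The higher genes included Lingo1 in each library and Neto1, an auxiliary subunit of kainate receptors, with log2 ratios of 1.18, 1.07 and 0.67. Neto1 was at 0.998 at P1 with the reference weighted by depth, at 0.997 at E16.5 where that reference also lacked the other barred genes, and at 0.85 in P1 members with Sfrp2. At P5 the other was Brinp2, at 172 CPM in members against 67.4 in reference cells (1.34, interval 0.85 to 1.82). The AMPA receptor subunit genes lay closer to the reference, with Gria1 at 0.31, -0.06 and 0.62 and Gria2 at 0.04, -0.14 and 0.15. In members with Sfrp2, the olfactomedin gene Olfm1 was past 2-fold lower, at -1.185 at P1 (interval -1.743 to -0.6885) and -1.007 at P5 (-1.456 to -0.5959).

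Few Wnt and GATA genes could be tested. Of 63 listed Wnt pathway genes, 7 had enough UMIs, and 0 of them were past 2-fold in any library, with medians of -0.26, -0.09 and 0.17. Fzd3, a frizzled receptor, had log2 ratios of -0.61 (0.0089 as a mean of per-cell CPM), -0.09 and 0.66, and Ctnnb1, which encodes beta-catenin, of -0.30, 0.13 and 0.35. Gata2, Gata3, Gata4 and Gata6, the DNA-binding partners of FOG proteins, had 0 UMIs in members and in reference cells of all 3 libraries. Of 7 tested genes of a list of GATA and FOG partners, 1 was past 2-fold higher and 0 lower at E16.5, 0 and 1 at P1, and 1 and 1 at P5, with medians of 0.27, -0.33 and 0.10. Hdac2, a deacetylase of the NuRD complex that FOG proteins recruit, had log2 ratios of 0.27, 0.26 and 1.06. Its P5 ratio was 0.91 with a pseudocount of 10 CPM and also under 2-fold as a mean of per-cell CPM.

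Of 18 tested channel genes, 1 was past 2-fold higher and 3 lower at E16.5, 0 and 0 at P1, and 0 and 1 at P5. Of 14 tested receptor genes, 2, 1 and 1 were past 2-fold higher in the E16.5, P1 and P5 libraries, and 0 lower. At E16.5, Cacna2d3, a calcium channel subunit, was at 229 CPM in members against 72.1 in reference cells (log2 ratio 1.66, interval 1.26 to 2.05), with 0.04 at P1 and -0.66 at P5. Gabra2, a GABA-A receptor subunit, had log2 ratios of 1.39, -0.88 and 0.42, and -1.29 in the 5 E16.5 members with Sfrp2 on 2 UMIs (interval -4.35 to 0.55). Kcnk2, a potassium channel, was at 52.3 CPM against 188 at E16.5 (-1.83, interval -2.76 to -1.07), with log2 ratios of -0.16 at P1 and 0.42 at P5. In the 5 E16.5 members with Sfrp2, Kcnk2 was at -0.52. Sstr1, a somatostatin receptor, had log2 ratios of 0.56, 1.29 and 0.83. At P1 it was not past 2-fold higher with over 1000 genes and under 5% mitochondrial UMIs required.

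Among adhesion and guidance genes, 6, 1 and 4 of 45 tested were past 2-fold higher in the E16.5, P1 and P5 libraries, and 2, 4 and 0 were past 2-fold lower. Over all tested genes, 0.963%, 0.233% and 0.963% were past 2-fold higher and 1.4%, 0.933% and 1.2% lower. Pcdh8, a protocadherin, was at 165 CPM in members against 109 in reference cells at E16.5, 163 against 78.8 at P1 and 176 against 32.5 at P5, log2 ratios of 0.59, 1.04 and 2.41. Its level in members was thus similar in the 3 libraries, while that in reference cells was lowest at P5. Tmeff2, a transmembrane protein with follistatin domains, had log2 ratios of 1.02, 0.89 and 1.01. Its P5 ratio was 0.72 in members with Sfrp2 and under 2-fold with a pseudocount of 10 CPM. The E16.5 ratio was under 2-fold in several settings. Sema3a, a secreted semaphorin, had log2 ratios of -1.27, -1.10 and -0.34, and 0.42 in the 5 E16.5 members with Sfrp2 on 8 UMIs (interval -0.79 to 1.40). Erbb4, the neuregulin receptor of migrating interneurons, had log2 ratios of -0.78, -1.76 and -0.94.

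Lists that the study chose on these libraries are not independent evidence, and their counts are given as a description. Of 20 tested Martinotti genes, which mark somatostatin cells with axons reaching layer 1, 6 were past 2-fold higher and 0 lower at E16.5, 3 and 1 at P1, and 2 and 2 at P5, with medians of 0.24, 0.36 and -0.05. Of 21 tested non-Martinotti genes, 0 were higher and 4 lower at E16.5, 0 and 5 at P1, and 1 and 4 at P5, with medians of -0.30, -0.63 and -0.18. Reln, a Martinotti gene that encodes the secreted protein reelin, had log2 ratios of 0.15, 1.18 and 0.29. In cells with Pdyn UMIs and none of the 3 rule genes, Reln was at 1.84 at P1 (17 cells) and 1.34 at P5 (283 cells). In such cells with Myh8 UMIs it was at 0.76 at P1 (24 cells) and 0.32 at P5 (149 cells). These ratios were taken over reference cells without that group. With reference cells that also lacked UMIs of Pdyn, Myh8, Cbln4 and Neurod6, the Martinotti median at P5 was 0.18. Of 71 genes picked from the study's developmental module, which are a part of it, 43 were tested and 0 were past 2-fold in any library.

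Members with Sfrp2 were also summed apart from members without it in the same library. Nr2f2 had 0 UMIs in the 42 P1 members and the 32 P5 members with Sfrp2, at least 9.96-fold and 9.05-fold lower than in reference cells when set at a floor of 3 UMIs over the group. At P1, Calb1, which encodes the calcium buffer calbindin, had a log2 ratio of -3.36 in members with Sfrp2 (3 UMIs, interval -5.73 to -1.90) and -0.49 in the 43 members without. At P5, Mpped2 had 0.36 in members with Sfrp2 and 2.03 in the 19 members without. Zbtb20 was high in both at P5, at 2.62 and 2.65, as were Lingo1 at 1.93 and 2.39 and Pcdh8 at 2.28 and 2.62. These subsets were as small as 19 cells, and the differences between them were not tested.

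Cells holding a lone gene of the 3 were summed in the same way. At P5, the 132 cells with Olfm3 alone had log2 ratios of 1.91 for Zbtb20, 1.66 for Lingo1, 1.75 for Pcdh8 and -2.27 for Nr2f2. The 70 cells with Sfrp2 alone had 1.96, 0.62, 1.33 and -3.90 for the same genes, the last on 3 UMIs (interval -6.30 to -2.47). The 65 cells with Zfpm2 alone had 1.60, 0.91, 1.41 and -1.10. At E16.5, Nr2f2 was at 1.45 in the 351 cells with Zfpm2 alone and 0.93 in the 106 cells with Olfm3 alone, against -0.41 in the 48 cells with Sfrp2 alone.

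**Figure D3:**
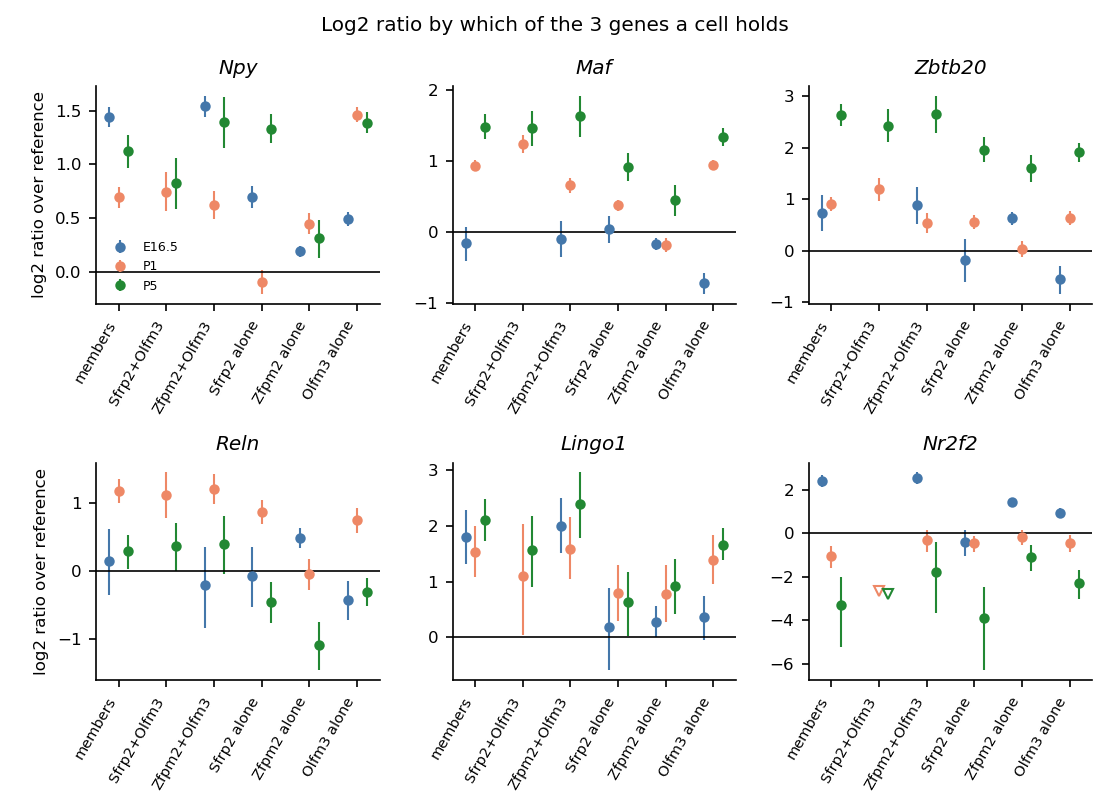
Log2 ratio over reference cells of 6 genes in members, in members holding Sfrp2 and Olfm3 or Zfpm2 and Olfm3 alone, and in cells with a lone gene of the 3, for the E16.5, P1 and P5 libraries, with exact 95% intervals for counting error. Groups under 10 cells are not drawn, and open triangles mark groups with 0 UMIs of Nr2f2, drawn at the bound for a floor of 3 UMIs, so that the ratio is at or under them; Zbtb20 is higher than reference in every group at P5.

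Cells with UMIs of Pdyn, Myh8 or Cbln4 and none of the 3 genes were set beside members for these genes at P5, without a test. Zbtb20 had a log2 ratio of -1.13 in the 283 Pdyn cells and -2.70 in the 149 Myh8 cells, against 1.42 in the 29 Cbln4 cells and 2.63 in members. Pcdh8 had -1.53, -0.25 and 1.59 in those groups, against 2.41 in members. Nr2f2 had -1.01, 1.81 and -0.10, against -3.28. Cort had -1.77, 0.45 and -4.08, against -3.28, so the Cort level was low in Cbln4 cells too, on 5 UMIs. These groups are part of the reference cells, and the ratios of Pdyn and Myh8 cells were taken over reference cells without that group. Zbtb20 stood at 157.9 and 156.2 CPM in those reference cells, against 142.3 CPM in the reference cells of members. The ratios are therefore not on the same scale. Without these groups and the cells with Neurod6 UMIs, Zbtb20 was at 2.33, Pcdh8 at 2.20 and Nr2f2 at -3.09 in P5 members.

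Levels can also be set side by side between libraries, without a test. Nr2f2 in members was lower at P5 than at E16.5 by a log2 ratio of -4.91 (interval -6.89 to -3.60), while in reference cells it was higher by 0.76. The log2 ratio of Zbtb20 at P5 over E16.5 was 1.63 (interval 1.24 to 2.04) in members and -0.26 in reference cells. Maf had 1.06 in members and -0.58 in reference cells for the same comparison, and Sst had -2.18 and -0.85. Sox4, a factor of immature neurons, had -2.08 and -2.80. Members of the 3 libraries differ in which of the 3 genes they hold, so a change of level and a change in which cells the rule takes cannot be told apart.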

How the data were processed

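RNA of sorted GFP-positive cells was counted in 3 libraries, 1 per stage, and the authors deposited UMI counts per gene and cell. Per the file headers these were made with Cell Ranger, version 3.0.2 for P1 and 3.1.0 for the other libraries. The submitters' notes also name STAR, Seurat and the build GRCm38. Counts were analysed as deposited with Python 3.11.15 and its packages scikit-learn 1.9.0, pandas 2.3.3, numpy 2.4.6, scipy 1.17.1 and matplotlib 3.10.9. UMIs were summed over members and over reference cells, and genes with at least 20 UMIs in each library (members plus the reference scaled to their total) were compared. Intervals are exact at 95% (Poisson, conditional binomial or Clopper-Pearson). Summing was tested on simulated data. No doublet caller was used.

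Members and lists were chosen with earlier results of these data known, and the use of 10 thinning draws in place of 1 was chosen after values were seen. The named genes exclude the 8 rule genes, mitochondrial, ribosomal and Y-linked genes, Xist and Tsix. They are up to 15 higher and 12 lower genes past 2-fold in all 3 libraries, the 6 per library with the largest ratio at 50 or more UMIs, up to 4 tested genes per list by mean size of the ratio, and always Sst, Gad1, Gad2, Lhx6, Sox6 and Nr2f2. Gria1, Gria2, Hopx and the Gata genes were chosen after their values were seen. Coordinates are from GENCODE M21, which matched 30934 of 31053 gene identifiers. Alternatives changed the filters on cells and genes, the depth, the members, the reference cells, the scaling and the pseudocount, or left out the top 5% of cells by UMIs or the E16.5 library. Results for some genes are not reported here.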

Additional observations from a re-analysis of the deposited data

Results flagged for a closer look

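Nr2f2 and Pnoc were past 2-fold in opposite directions in different libraries. The log2 ratio of Nr2f2 in members over reference cells was 2.40 in the E16.5 library, -1.06 in the P1 library and -3.28 in the P5 library. The 42 P1 members and 32 P5 members with Sfrp2 held 0 Nr2f2 UMIs, so the ratio does not describe all members alike. At P1 the ratio was under 2-fold with a reference without UMIs of the other 4 genes (-0.92) and with a pseudocount of 10 CPM (-0.97). It was 0.065 at P1 with over 1000 genes and under 5% mitochondrial UMIs required. That of Pnoc was 1.21 in the E16.5 library and -1.08 in the P5 library. Pnoc was under 2-fold at E16.5 with reference cells weighted by depth (0.93), and at P5 in members with Sfrp2 (-0.50) and under the same stricter filter (-0.85). It was also under 2-fold at P5 with a pseudocount of 10 CPM, and not past 2-fold higher at E16.5 in members with Sfrp2. With 1 library per stage, these differences between libraries were not tested.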

How the results depend on the processing

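The 82 log2 ratios past 2-fold of 48 named genes were computed again under 8 settings. Of these 656 values, 576 stayed within the counting interval of the reported value, 68 moved outside it and 12 changed sign; ratios under 2-fold are not in these counts. Of the 82, 30 were under 2-fold or turned in members with Sfrp2 alone, 17 with over 1000 genes and under 5% mitochondrial UMIs required, 11 as a mean of per-cell CPM, 10 with a pseudocount of 10 CPM, 7 with the reference weighted by depth, 6 with that weighting and no UMIs of the other 4 genes, 5 without the top 5% of cells by UMIs and 4 with the reference without those UMIs. Pcdh8 at P1, Tmeff2 at E16.5 and Mef2c at E16.5, all close to 2-fold, were among them in several settings. Values below follow the order E16.5, P1 and P5 where 3 are given, and the cause was not tested except where stated. The number of members was 5, 30 and 21 with cells thinned to 2000 UMIs and 0, 8 and 3 with all 3 genes required. With over 1000 genes and under 5% mitochondrial UMIs required, it was 14 at P1 and 29 at P5. This filter tested fewer genes (1303), of which 9, 27 and 20 were past 2-fold higher, 10 at E16.5 and 12 at P5 past 2-fold lower, and 0 in either direction in all libraries. Klhl5 and Ptchd4 stayed past 2-fold lower but had too few UMIs to be tested, and Nr2f2 at P1 was at 0.065. Members with Sfrp2 alone left 5 cells at E16.5 and 529 genes tested, with 6, 4 and 8 genes higher, 4, 5 and 4 lower, and 0 in either direction in all libraries. There, at E16.5, the log2 ratio was -1.29 for Gabra2, 0.42 for Klhl5, -0.74 for Lingo1, -0.27 for Mpped2, 0.13 for Nxph2, -5.98 for Pnoc and -3.77 for Prune2, 0.42 for Sema3a, -0.62 for Sst and 0.33 for Tmem178. Pnoc and Prune2 had 0 UMIs in these cells, so the pseudocount sets their values, and a floor of 3 UMIs (78.6 CPM) lies above their reference levels (62.1 and 12.6 CPM), so no decrease is shown. Of the others, the interval of Sst alone leaves out 0. Without the top 5% of cells by UMIs, 1 gene was higher and 2 lower in all libraries among fewer tested genes (3010); Cort, Sh3rf3 and Klhl5 stayed past 2-fold lower but had too few UMIs to be tested. There Prune2 at E16.5, where 75.0% of its UMIs came from 1 member, was at -0.96 on 1 UMI (interval -6.41 to 1.40). With the reference weighted by depth, 4 genes were higher in all libraries and 17 at P1. With that weighting and a reference without UMIs of the other 4 genes, chosen after seeing the data, these counts were 4 and 19, and the Martinotti median at P5 was 0.16. A reference without those UMIs alone gave 0.18. The mean of per-cell CPM gave 13 genes higher at P1, 82, 51 and 64 lower, and medians at P5 of 0.16 for Martinotti and -0.38 for non-Martinotti genes. A pseudocount of 10 CPM gave 26 genes lower at E16.5 and 18 at P1. Testing fewer genes (1700), with at least 40 UMIs, gave 19, 5 and 18 higher, 10, 7 and 11 lower, and 1 lower in all libraries. Testing more (5567), with at least 10 UMIs, gave 75, 16 and 91 higher, 156, 89 and 162 lower, and 5 higher in all libraries. These counts differ in part because the number of genes tested differs. In the P1 and P5 libraries alone, 12 of 4260 tested genes were higher and 23 lower in both. Without thinning, neighbours of P1 members were members at 5.18 times their share of the cells. Lingo1 was among the genes higher in all libraries in each setting but the stricter cell filter and the members with Sfrp2 alone.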
